A study of Mus musculus with 6 samples.

Results

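The TNF receptor complex was examined in bEND.3 cells, which are immortalized endothelial cells of mouse brain, through 10 genes chosen by name from the 49315 genes of the count table. They were the receptors Tnfrsf1a and Tnfrsf1b, the adaptor Tradd, the kinase Ripk1, the adaptors Traf1, Traf2, Traf3 and Traf6, and the ubiquitin ligases Birc2 and Birc3. The 4 GapmeR samples were bEND.3 cells transfected with an LNA GapmeR against the long non-coding RNA Gm39822, and the 2 negative control samples were bEND.3 cells transfected with a negative control LNA GapmeR. Both oligonucleotides were used at 100 nM by lipofection, so the controls share the transfection, and no TNF-α treatment is given for these samples. A GapmeR is a short antisense oligonucleotide whose DNA core makes RNase H cleave the RNA it binds. The labels give 1 GapmeR against Gm39822 and 1 cell line, and do not say whether the samples came from separate cultures, so p-values measure only the spread between these samples, which may be technical.

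TNF-α binds TNFR1, the death domain receptor encoded by Tnfrsf1a and carried by most cells, and TNFR2, encoded by Tnfrsf1b, which lacks a death domain. Ligand-bound TNFR1 takes up TRADD and RIPK1, TRADD brings in TRAF2, and TRAF2 brings in the ligases cIAP1 (Birc2) and cIAP2 (Birc3), whose ubiquitin chains on RIPK1 recruit the kinases that activate NF-κB. TRAF3 acts with TRAF2 and the cIAPs to keep the kinase NIK (Map3k14) degraded, whereas TRAF6 mainly serves the Toll-like and interleukin-1 receptors. In endothelium this signaling is best known for inducing adhesion molecules such as VCAM-1 and E-selectin, and also TRAF1, cIAP2 and A20 (Tnfaip3), which act back on the receptor complex.

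The depth was 30264086 to 37117934 counts per GapmeR sample and 29261988 and 34266811 for the negative controls. Levels are given as CPM, a gene's counts divided by those of its library on a common scale, with edgeR's TMM method, and the SD is that between samples. Differences are log2 fold changes of GapmeR against negative control from edgeR's quasi-likelihood test, fitted over 18234 genes, and a gene passed with an adjusted p-value under 0.05. In bulk RNA, a change in the share of cells of a type cannot be told apart from a change in RNA per cell. The target Gm39822 was left with 2, 1, 4 and 2 counts across GapmeR samples 1 to 4, against 61 and 56 in the negative controls. The knockdown was therefore seen in every sample, with a log2 fold change of -4.82 (SE 0.41, adjusted p = 8.8e-08).

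Features of the libraries bear on what follows. Endothelial markers were abundant in every sample, with summed levels of 13 genes between 9542 and 10898 CPM in the GapmeR samples and at 11867 and 11403 CPM in the controls. Egfl7 was the most abundant of them, and all 13 were detected, with 7 lower and 2 higher after knockdown. Markers of macrophages and other leukocytes summed to 238, 219, 382 and 413 CPM across GapmeR samples 1 to 4, against 186 and 181 CPM in the controls. GapmeR 3 and GapmeR 4 thus stood apart from the other samples in the sum of these 15 genes, which need not hold for each gene. Lyz2 was the most abundant of them, and the T cell gene Cd3e had at most 1 count in each sample. Among the 13 leukocyte markers tested, Cd68 and Fcer1g were higher after knockdown and the other 11 did not pass. Of 12 markers of pericytes, smooth muscle and fibroblasts 10 were tested and Myh11 alone was higher, and their sum was 19.9 to 25.0 CPM in GapmeR samples 1, 2 and 4, 59.4 CPM in GapmeR 3, where Col1a1 had 1179 counts, and 14.9 and 15.6 CPM in the controls. Of 7 neural markers 5 were lower and none was higher, with sums of 23.5 to 38.7 CPM after knockdown against 51.5 and 50.9 CPM. The marker counts stand beside the 45.3% of all genes tested that passed, with 25.4% higher and 20.0% lower. The part of these markers in the results below was not tested.

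Promoter sequences of the 4 members that passed the test are shown first, to let their base composition and motifs be read directly. They are credited to RefSeq on GRCm38.p6 and run 5′ to 3′ on the gene's strand from 250 bases before to 50 bases after the start. Of the 10 members, 9 had an entry. Capitals mark matches to the NF-kB consensus, given here by name, or to the GC box GGGCGG, both searched on both strands, and the AP-1 site TGANTCA and the TATA box TATAAA were searched too.
Tnfrsf1a (chr6:125349473-125349772, forward strand): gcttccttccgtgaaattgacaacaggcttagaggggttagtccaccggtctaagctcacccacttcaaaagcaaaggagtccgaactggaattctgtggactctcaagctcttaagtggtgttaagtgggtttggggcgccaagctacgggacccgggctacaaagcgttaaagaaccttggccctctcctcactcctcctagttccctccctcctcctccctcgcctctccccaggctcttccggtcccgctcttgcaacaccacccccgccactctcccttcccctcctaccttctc
Traf1 (chr2:34961723-34962022, reverse strand): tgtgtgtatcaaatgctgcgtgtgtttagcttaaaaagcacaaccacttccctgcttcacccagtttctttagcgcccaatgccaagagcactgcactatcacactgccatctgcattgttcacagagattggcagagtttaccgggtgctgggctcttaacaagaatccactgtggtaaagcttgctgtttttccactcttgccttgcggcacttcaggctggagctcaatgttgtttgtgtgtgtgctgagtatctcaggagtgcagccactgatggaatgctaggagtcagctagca
Traf3 (chr12:111166120-111166419, forward strand): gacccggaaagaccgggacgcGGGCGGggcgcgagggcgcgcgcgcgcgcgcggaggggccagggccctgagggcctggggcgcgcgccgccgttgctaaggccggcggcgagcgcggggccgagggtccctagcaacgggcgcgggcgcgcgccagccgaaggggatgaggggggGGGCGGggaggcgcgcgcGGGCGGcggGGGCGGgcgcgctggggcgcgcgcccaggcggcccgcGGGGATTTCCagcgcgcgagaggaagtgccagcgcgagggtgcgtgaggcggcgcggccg
Birc3 (chr9:7873121-7873420, reverse strand): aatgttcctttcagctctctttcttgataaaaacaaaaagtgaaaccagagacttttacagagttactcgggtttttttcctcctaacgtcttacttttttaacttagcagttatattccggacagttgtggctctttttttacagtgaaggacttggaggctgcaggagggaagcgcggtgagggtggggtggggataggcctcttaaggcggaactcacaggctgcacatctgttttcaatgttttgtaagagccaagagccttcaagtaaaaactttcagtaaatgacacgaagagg

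The Traf3 window was 84.0% G and C and held 59 CpG dinucleotides, against medians of 52.7% and 7 over 32851 promoters. It held 4 GC boxes and 1 match to the NF-kB consensus, GGGGATTTCC, at positions -10 to -1 before the start that the promoter table uses. That start lies inside the Traf3 gene interval given below, whose first base is 111166321, so the match is within the interval. The starts used for Traf1 and Birc3 also lie inside their gene intervals, and that of Tnfrsf1a is the first base of its interval. The consensus was found in 8.46% of all promoter windows and the GC box in 35.7%. The windows of Traf1, at 48.7% G and C with 4 CpG dinucleotides, and of Birc3, at 43.0% with 7, held none of the 4 motifs, and neither did that of Tnfrsf1a, at 57.0% with 11. No window of a member held the AP-1 site or the TATA box, which occurred in 7.81% and 13.6% of all windows. A match is a run of letters and not a bound site, and a window without a match says nothing of sites elsewhere.

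Of the 10 members, 4 passed the test after Gm39822 knockdown. Traf1, Traf3 and Birc3 were higher and Tnfrsf1a was lower, while Tnfrsf1b, Tradd, Ripk1, Traf2, Traf6 and Birc2 did not pass. All 10 had enough counts to be tested. Of all genes tested, 45.3% passed, 25.4% higher and 20.0% lower, so the members stood near the background and the number of members that changed is not a result about the complex. Scaled by library size only, 6 passed, with Traf2 and Birc2 also higher, against 45.2% of all genes. Of the 18234 genes tested, 6106 were then higher and 2135 lower. At an adjusted p-value under 0.01 there were 3, Tnfrsf1a, Traf1 and Traf3, against 32.3% of all genes. The median log2 fold change of the members was 0.11 and that of all genes 0.03. The change in Traf1 alone was at least 1.5-fold, a size that 25.4% of all genes reached with an adjusted p-value under 0.05. In 6 of the 10 genes every GapmeR sample lay on the same side of both controls, as it did in 59.2% of all genes.

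**Figure D1:**
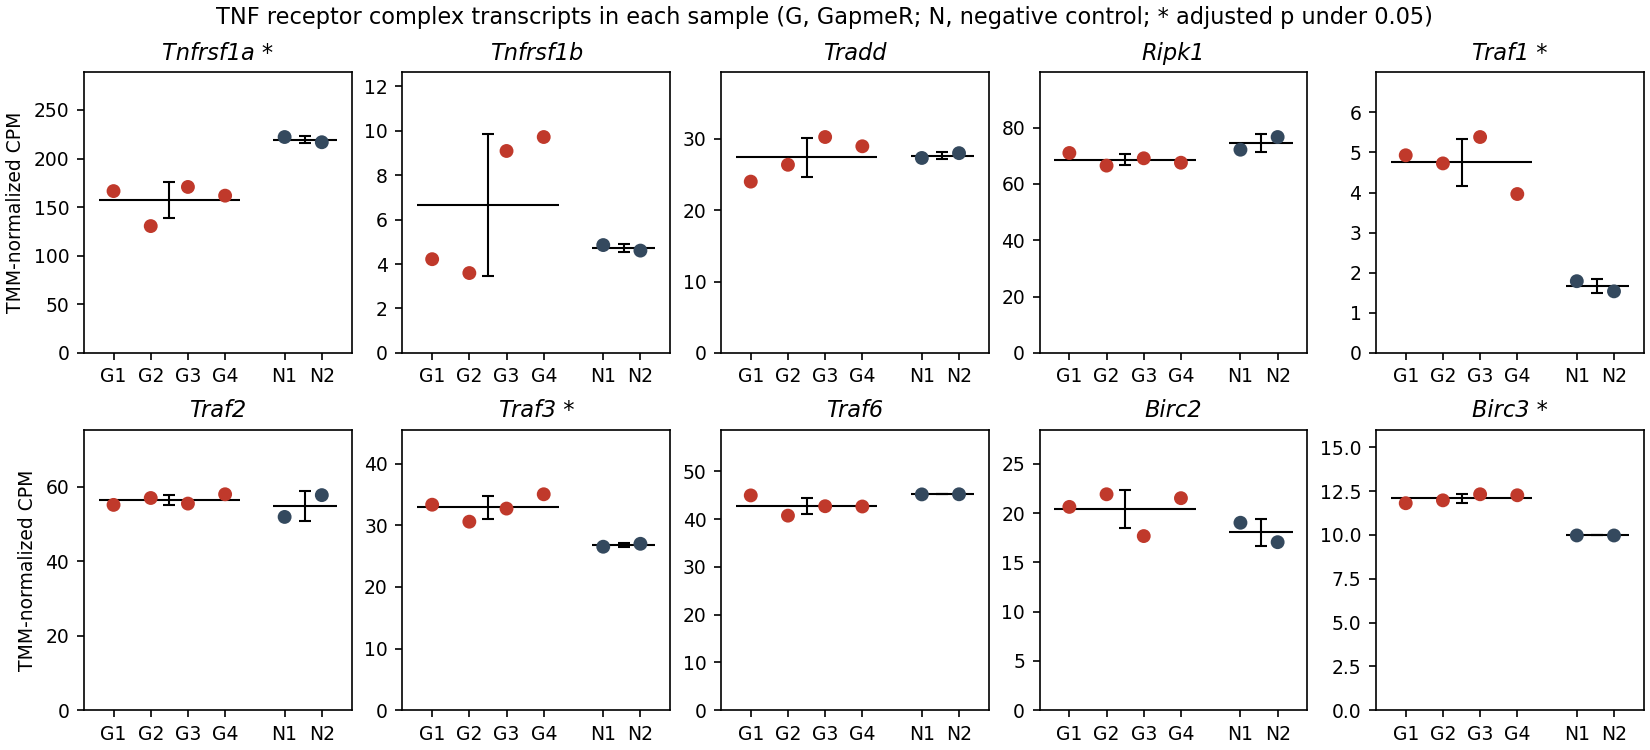
TMM-normalized CPM (vertical axes, from 0) of the 10 genes in GapmeR samples 1 to 4 (red, G1 to G4) and negative controls 1 and 2 (dark, N1 and N2), with the mean of each group as a line and its SD as a bar. The GapmeR samples lie below both controls in Tnfrsf1a and above both in Traf1, Traf3 and Birc3, and Tnfrsf1b is high in GapmeR 3 and GapmeR 4 only.

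Tnfrsf1a (ENSMUSG00000030341), on chromosome 6 of mm10 from 125349723 to 125362483, was the most abundant member. Its level was 166, 130.5, 171 and 162 CPM across GapmeR samples 1 to 4, against 222 and 217 CPM in the negative controls. All GapmeR samples were below both controls, and GapmeR 2 was the lowest. The level fell from 219 ± 3.79 CPM (n = 2) to 157 ± 18.3 CPM (n = 4, both with SD), a log2 fold change of -0.48 (SE 0.09, adjusted p = 0.00066 by edgeR's quasi-likelihood test), which is a fall of 28.3%. A 2-sided exact permutation test of the 15 possible splits gave p = 0.0667, the smallest this design allows. The fall was -0.54 without GapmeR 3 and GapmeR 4 and -0.39 without GapmeR 1 and GapmeR 2. These values are given with no test, since this split was chosen after the data were seen.

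Tnfrsf1b (ENSMUSG00000028599), on chromosome 4 from 145212368 to 145246870, encodes the receptor known mainly from leukocytes and endothelium. Its level was 4.22, 3.60, 9.09 and 9.72 CPM across GapmeR samples 1 to 4, against 4.86 and 4.61 CPM in the controls. GapmeR 1 and GapmeR 2 were below both controls and GapmeR 3 and GapmeR 4 above both, so the groups overlapped. The log2 fold change was 0.48 (SE 0.51, 95% interval -0.83 to 1.79, adjusted p = 0.495 by edgeR), and the replicates were too far apart to give it a direction. Without GapmeR 3 and GapmeR 4 it was -0.26, and without GapmeR 1 and GapmeR 2 it was 1.00. These values are given with no test, since the samples were split after their values were seen.

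The samples high in Tnfrsf1b were those with the highest sums of the 15 leukocyte markers, to which Lyz2 added the most. Csf1r and Lyz2 were named from these markers after their values were seen, and neither passed the test. In GapmeR samples 1 to 4 the macrophage receptor Csf1r was at 9.33, 7.40, 22.6 and 25.8 CPM, and in the controls it was at 7.34 and 6.83 CPM. Lyz2, which encodes lysozyme, was at 79.1, 73.5, 168 and 206 CPM after knockdown and at 68.8 and 62.1 CPM in the controls. Both genes, like Tnfrsf1b, were highest in GapmeR 3 and GapmeR 4, but in both GapmeR 1 and GapmeR 2 lay above the controls, whereas in Tnfrsf1b they lay below. The part of leukocyte RNA in the Tnfrsf1b values was not tested. An antisense RNA in the GENCODE release for GRCm39, Gm68886, shares 184 bases of exon with Tnfrsf1b. The genes with profiles most like that of Tnfrsf1b, by Euclidean distance of centered log2 CPM over the 6 samples among 12772 genes, were Lrp1 (0.354), Nckap1l (0.361) and P2ry6 (0.371).

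**Figure D2:**
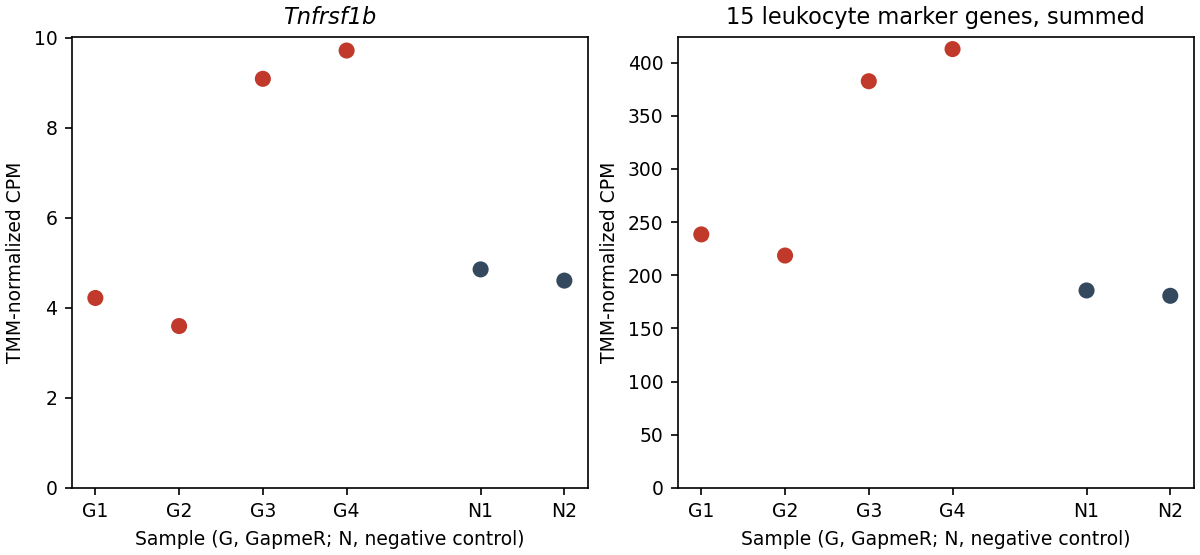
TMM-normalized CPM (vertical axes, from 0) of Tnfrsf1b (left) and of 15 leukocyte marker genes summed (right), 1 point per sample. GapmeR 3 and GapmeR 4 lie highest in both panels, at 9.09 and 9.72 CPM for Tnfrsf1b and at 382 and 413 CPM for the markers.

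Tradd and Ripk1 encode the death domain proteins that TNFR1 takes up first, and neither passed the test. Tradd (ENSMUSG00000031887), on chromosome 8 from 105258575 to 105264594, was at 24.0, 26.4, 30.2 and 28.9 CPM after knockdown and at 27.3 and 28.0 CPM in the controls. The controls lay within the range of the GapmeR samples, and the log2 fold change was -0.01 (95% interval -0.22 to 0.19, adjusted p = 0.911 by edgeR). Ripk1 (ENSMUSG00000021408), on chromosome 13 from 34002225 to 34035170, was at 71.0, 66.5, 69.1 and 67.5 CPM after knockdown and at 72.2 and 76.7 CPM in the controls. Its GapmeR samples all lay below the controls, but the log2 fold change of -0.12 did not pass (95% interval -0.27 to 0.03, adjusted p = 0.174 by edgeR). Exons of Ripk1 share 241 bases with Serpinb6a on the other strand, which had 9645 to 13894 counts, and 511 bases with the pseudogene Gm17084, which had 4 to 21 counts. The strand setting of the counting is not given in the sources used here, so reads of Serpinb6a within the shared bases may count for Ripk1, and Gm17084 lies on the same strand as Ripk1, so strand cannot separate them in the shared bases.

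Traf1 (ENSMUSG00000026875), on chromosome 2 from 34941750 to 34961812, encodes the TRAF that lacks the RING domain of its relatives and binds TRAF2. Its level was 4.93, 4.73, 5.38 and 3.96 CPM across GapmeR samples 1 to 4, against 1.79 and 1.54 CPM in the controls. Every GapmeR sample was above both controls, and the lowest of them was above the higher control. The level rose from 1.66 ± 0.179 CPM (n = 2) to 4.75 ± 0.593 CPM (n = 4, both with SD), a log2 fold change of 1.52 (SE 0.19, adjusted p = 1.0e-05 by edgeR), or 2.86-fold. This was the largest change among the 10 members, with p = 0.0667 in the exact permutation test. In the alternatives its log2 fold change was 1.43 to 1.66. It passed in each alternative that kept both controls and was chosen before the data were seen. The rise rests on 128 to 184 counts after knockdown and 49 in each control, and an antisense RNA annotated in the GENCODE release for GRCm39, Gm74856, shares 349 bases of exon with Traf1.

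The profiles most like that of Traf1, by the same distance over the 6 samples, were those of Wnk4 (0.146), Gm36028 (0.281) and Filip1 (0.286). Wnk4 rose by 1.47 on the log2 scale (SE 0.20, adjusted p = 1.9e-05 by edgeR). For Tnfrsf1a they were 1700017B05Rik (0.0556), Vrk3 (0.0613) and Slc25a1 (0.0637), with log2 fold changes of -0.44, -0.46 and -0.47.

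Traf2 (ENSMUSG00000026942), on chromosome 2 from 25517982 to 25546940, encodes the adaptor that carries the cIAPs to the receptor. It was at 55.1, 56.9, 55.4 and 57.9 CPM after knockdown and at 51.8 and 57.7 CPM in the controls. These ranges overlapped, and the log2 fold change was 0.04 (95% interval -0.11 to 0.19, adjusted p = 0.681 by edgeR), so a change beyond this interval was not seen. Traf1 per kb of exon was 7.75%, 7.19%, 8.41% and 5.92% of Traf2 across GapmeR samples 1 to 4, against 2.99% and 2.30% in the controls. The Traf1 share relative to Traf2 was thus 2.77 times as high after knockdown, with no overlap between the groups (exact permutation test, p = 0.0667).

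Traf3 (ENSMUSG00000021277), on chromosome 12 from 111166321 to 111267155, encodes the adaptor that holds NIK in check. Its level was 33.3, 30.6, 32.7 and 35.0 CPM across GapmeR samples 1 to 4, against 26.5 and 27.0 CPM in the controls. The GapmeR samples were all above the controls, and the groups did not overlap. The log2 fold change was 0.30 (SE 0.08, adjusted p = 0.0071 by edgeR), a rise of 22.9%, from 26.7 ± 0.336 CPM (n = 2) to 32.9 ± 1.84 CPM (n = 4, both with SD). Without negative control 1 the log2 fold change was 0.30 and no longer passed (adjusted p = 0.0555 by edgeR).

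Traf6 (ENSMUSG00000027164), on chromosome 2 from 101678420 to 101701668, encodes the ligase of Toll-like and interleukin-1 receptor signaling. It was at 44.9, 40.7, 42.7 and 42.6 CPM after knockdown and at 45.2 CPM in each control. All GapmeR samples were below the controls, the nearest by less than 1 CPM. The log2 fold change of -0.08 did not pass (95% interval -0.23 to 0.07, adjusted p = 0.392 by edgeR).

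Birc2 (ENSMUSG00000057367) and Birc3 (ENSMUSG00000032000) lie next to each other on chromosome 9, from 7818226 to 7837131 and from 7847468 to 7873205, both on the reverse strand. Birc2 was at 20.6, 21.9, 17.7 and 21.5 CPM after knockdown and at 19.0 and 17.0 CPM in the controls. GapmeR 3 lay between the controls, and the log2 fold change of 0.18 did not pass (95% interval -0.03 to 0.40, adjusted p = 0.159 by edgeR). Without GapmeR 3 it was 0.27 and passed (adjusted p = 0.0307 by edgeR).

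Birc3 was at 11.8, 12.0, 12.3 and 12.3 CPM after knockdown and at 9.97 and 9.96 CPM in the controls. The groups did not overlap, and the samples within each lay close together. The log2 fold change was 0.28 (SE 0.10, adjusted p = 0.0338 by edgeR), a rise of 21.3% from 9.97 ± 0.0012 CPM (n = 2) to 12.1 ± 0.242 CPM (n = 4, both with SD). This call stood near the threshold. It was lost with DESeq2's Wald test (adjusted p = 0.0631), without GapmeR 1 (adjusted p = 0.0519 by edgeR), without GapmeR 4 (adjusted p = 0.0587), without negative control 1 (adjusted p = 0.117) and without negative control 2 (adjusted p = 0.125), while the log2 fold change stayed between 0.27 and 0.43 in all alternatives. Birc3 per kb was 43.0%, 41.0%, 52.4% and 42.8% of Birc2 after knockdown and 39.4% and 43.9% in the controls. The ratio of the genes overlapped between the groups, so their changes were not told apart (exact permutation test, p = 0.533). The genes resemble each other, and reads shared between them could have been split by the counting.

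**Figure D3:**
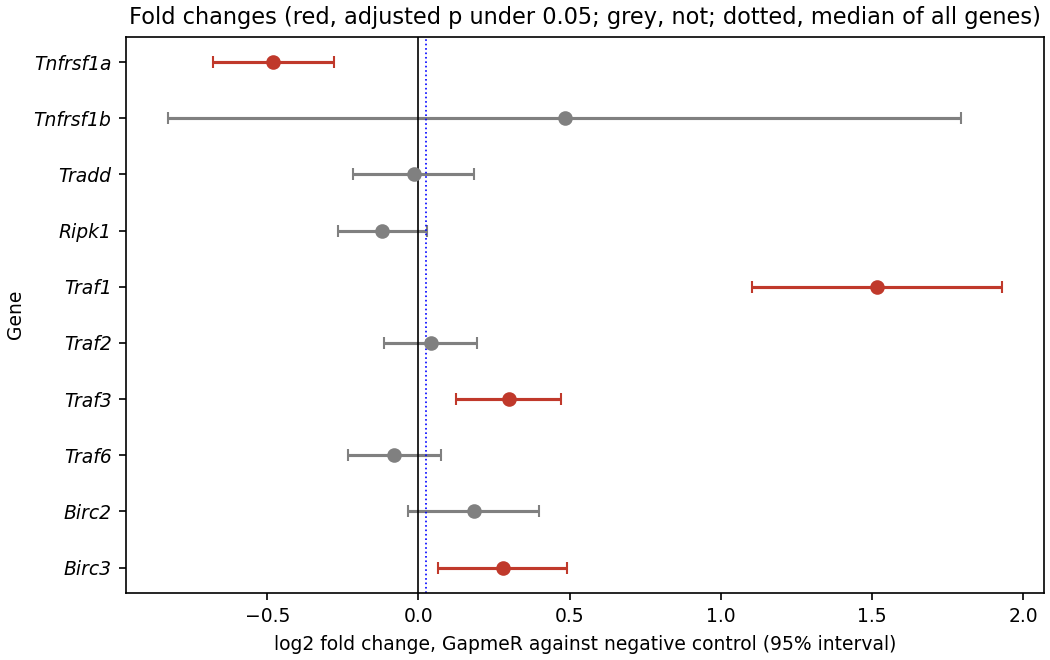
Log2 fold change of GapmeR against negative control (horizontal axis) for the 10 genes, with 95% intervals from edgeR's quasi-likelihood test. Genes with an adjusted p-value under 0.05 are red and the others grey, and the dotted line is the median of all genes, 0.03. Traf1 stands apart on the right at 1.52, and the widest interval, -0.83 to 1.79, is that of Tnfrsf1b.

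Levels were compared between the genes as CPM per kb of exon, with exon lengths taken by Ensembl identifier from GENCODE on GRCm39. In the negative controls Tnfrsf1a stood highest at 69.7 ± 1.20 CPM per kb (SD, n = 2) and Traf1 lowest at 0.187 ± 0.0202 CPM per kb (SD, n = 2). The transcript of TNFR1 was 72.9 times that of TNFR2 per length in the controls, where Tnfrsf1b was at 0.956 ± 0.0356 CPM per kb (SD, n = 2). From the highest level to the lowest, the order over the 6 samples was Tnfrsf1a, Tradd, Traf2, Ripk1, Traf6, Traf3, Birc2, Birc3, Tnfrsf1b and Traf1. The ranges of neighbors overlapped for Traf2 and Ripk1, Traf6 and Traf3, Traf3 and Birc2, and Birc3 and Tnfrsf1b, and were apart for the others. The order was the same with the length of the longest transcript in place of all exons. The distance from the top to the bottom of the order narrowed, since Tnfrsf1a was 372 times Traf1 in the controls and 93.3 times Traf1 after knockdown. Tradd per kb was 19.7%, 27.5%, 24.2% and 24.4% of Tnfrsf1a across GapmeR samples 1 to 4, against 16.8% and 17.6% in the controls, without overlap (exact permutation test, p = 0.0667).

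**Figure D4:**
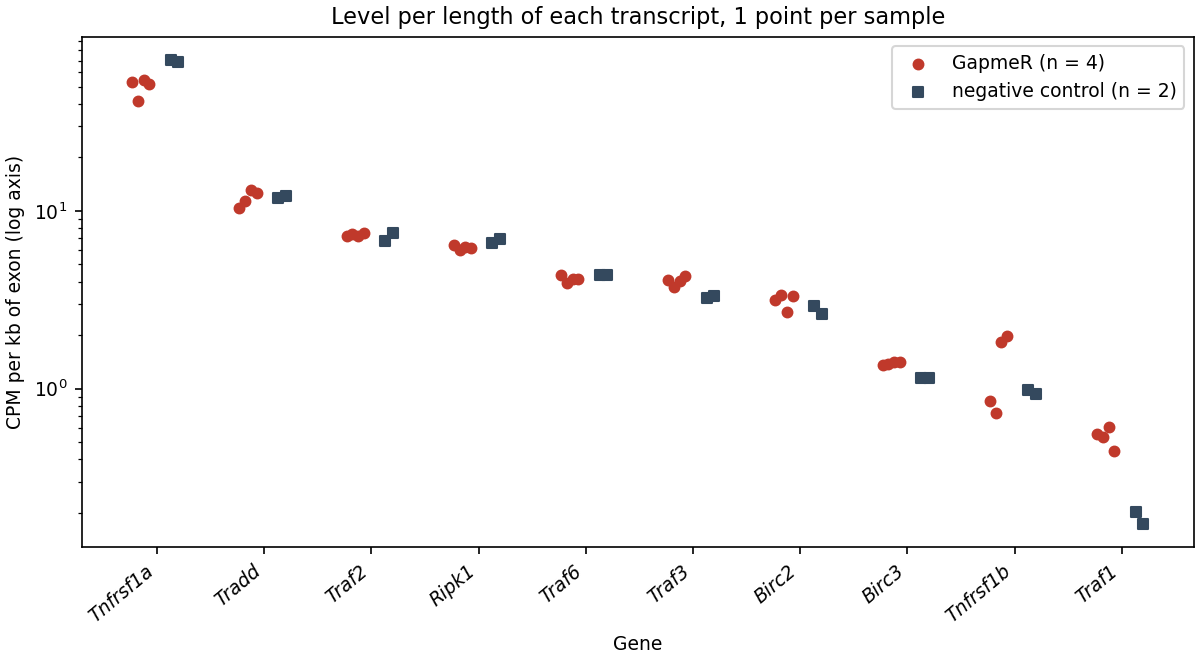
CPM per kb of exon (vertical axis, logarithmic) of each gene in the 4 GapmeR samples (red circles) and the 2 negative controls (dark squares), ordered by the mean over all samples. Tnfrsf1a lies above all others at 69.7 CPM per kb in the controls, and Traf1 lies lowest, at 0.187 CPM per kb in the controls and 0.535 CPM per kb after knockdown.

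The other genes of the pathway were taken from lists written by hand. Their counts stand beside the 25.4% of all genes tested that were higher and the 20.0% that were lower. Counts scaled by library size only stand beside 6106 genes higher and 2135 lower of the 18234 tested. The share of tested genes that passed was between 36.8% and 76.9% in the 9 lists, against 45.3% of all genes, and these shares are descriptions with no test. RNA of TNF-α itself was hardly detected. Tnf had 1, 0, 8 and 1 counts across GapmeR samples 1 to 4, against 3 and 0 in the controls, too few to be tested, so a change was not detectable at this depth. Of the 18 ligands of the TNF superfamily 7 were tested, with 2 higher, 1 lower and a median log2 fold change of 0.16. Tnfsf10, the death ligand TRAIL, fell from 33.5 ± 5.34 to 27.9 ± 1.14 CPM (SD, n = 2 and 4), with a log2 fold change of -0.26 (adjusted p = 0.0277 by edgeR). This call was lost when scaled by library size only, with at least 10 counts in every sample, without GapmeR 3, without negative control 2, without GapmeR 1 and GapmeR 2, and in the 4 samples that remain without GapmeR 3 and GapmeR 4, with or without the replicate block. The ligands that were higher, Fasl and Tnfsf13b, named after their values were seen, had at most 1 count in each control. Fasl, the ligand of Fas, had 34, 45, 25 and 51 counts after knockdown, and Tnfsf13b, the B cell factor BAFF, had 24, 31, 26 and 28.

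Other receptors of the superfamily moved in both directions. Of 26 genes 21 were tested, and 8 were lower, 5 were higher and 8 did not pass, with a median log2 fold change of -0.13. With at least 10 counts in every sample, 8 were lower and 1 was higher, against 2923 and 3263 of the 13353 genes then tested. That filter removed Tnfrsf4, Tnfrsf8, Tnfrsf13b and Edar, which had at most 5 counts in each control. Tnfrsf23, a decoy receptor for TRAIL, fell from 489 ± 35.5 to 271 ± 33.9 CPM (SD, n = 2 and 4), a log2 fold change of -0.85 (SE 0.10, adjusted p = 7.1e-06 by edgeR). Its neighbors of similar sequence, Tnfrsf22 at -0.73 and Tnfrsf26 at -0.47, were also lower, and reads could have been split among them. The genes that were higher were weakly expressed. Tnfrsf4, which encodes the T cell costimulator OX40, had 79, 100, 77 and 86 counts after knockdown and 5 in each control, with a log2 fold change of 3.87 (SE 0.32, adjusted p = 7.5e-08 by edgeR). Tnfrsf25 rose by 2.30 on the log2 scale, and Edar, the ectodysplasin receptor, had 48 to 65 counts after knockdown and 3 and 0 in the controls.

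Among the 8 genes that shed or silence the receptors, 4 were lower and none was higher, or 4 lower and 2 higher when scaled by library size only, with a median log2 fold change of -0.25. Grn, whose product progranulin is reported to bind TNF receptors, fell from 1652 ± 78.4 to 666 ± 102 CPM (SD, n = 2 and 4), a log2 fold change of -1.31 (SE 0.11, adjusted p = 9.1e-07 by edgeR). Erap1, an aminopeptidase reported to promote shedding of TNFR1, had a log2 fold change of -1.09, Timp3, an inhibitor of the shedding protease ADAM17, of -0.73, and Adam10 of -0.47. Adam17 itself, at 45.7 ± 2.24 and 45.2 ± 0.195 CPM (SD, n = 4 and 2), had a log2 fold change of 0.02 and did not pass (adjusted p = 0.862 by edgeR). Of 14 other genes related to the TRAFs and inhibitors of apoptosis, 3 were higher, 3 were lower and 8 did not pass, or 4 higher and 2 lower when scaled by library size only, with a median of -0.07. Birc5 at 0.69 and Traip at 0.78, both genes of dividing cells, were the largest rises, and Htra2, a mitochondrial protease that binds the inhibitors, at -0.53 and Traf3ip2, the interleukin-17 receptor adaptor, at -0.39 the largest falls.

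Of the 11 genes of the death and necroptosis arm 7 were lower, none was higher and 4 did not pass, or 6 lower and 1 higher when scaled by library size only, with a median log2 fold change of -0.36. Zbp1, a nucleic acid sensor that activates necroptosis, fell from 262 ± 21.3 to 84.8 ± 15.2 CPM (SD, n = 2 and 4), a log2 fold change of -1.63 (SE 0.14, adjusted p = 2.0e-05 by edgeR). Mlkl, which executes necroptosis, fell from 321 to 161 CPM, and the log2 fold change of Bid, the link to mitochondrial apoptosis, was -0.96 and that of Cflar, which restrains caspase-8, was -0.42. The genes of this list that fell thus held both effectors and an inhibitor of cell death. Casp8 at -0.16 (adjusted p = 0.0618), Ripk3 at 0.02 and Cyld at 0.09 did not pass.

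Of 19 genes of the ubiquitin chains and their removal 3 were higher, 4 were lower and 12 did not pass, or 5 higher and 2 lower when scaled by library size only, with a median log2 fold change of -0.12. The linear chain ligase genes Rnf31, Rbck1 and Sharpin had log2 fold changes of -0.10, -0.21 and -0.00 and did not pass. Tnfaip3, which encodes A20, rose from 30.8 ± 0.466 to 40.4 ± 3.78 CPM (SD, n = 2 and 4), a log2 fold change of 0.39 (SE 0.09, adjusted p = 0.0021 by edgeR). Usp4, a deubiquitinase, had a log2 fold change of 0.80, while Tnip2, a partner of A20, was lower at -0.53 and Ube2v1 at -0.44.

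The kinase complexes had 3 genes higher, 4 lower and 8 not passing among 15, or 5 higher and 2 lower when scaled by library size only, with a median log2 fold change of -0.00. Map3k14, which encodes NIK, rose from 7.36 ± 0.126 to 17.5 ± 1.74 CPM (SD, n = 2 and 4), a log2 fold change of 1.25 (SE 0.12, adjusted p = 3.0e-07 by edgeR). Its counts were 616, 605, 518 and 631 across GapmeR samples 1 to 4, against 204 and 232 in the controls, with every GapmeR sample above both. Ikbke, an IKK-related kinase, had a log2 fold change of 1.16 and Tab1, the TAK1 partner, of 0.77, whereas the kinase gene Map3k5 was lower at -0.69. The core kinases Chuk at 0.17, Ikbkb at 0.09 and Map3k7 at 0.00 did not pass. With 1 GapmeR sample left out 7 to 8 passed, against 41.7% to 48.9% of all genes. The number without a negative control is not given, since 1 control is then left.

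Genes that feed TRAF6 were lower in 7 of 13 cases and higher in 3, or lower in 6 and higher in 5 when scaled by library size only, with a median log2 fold change of -0.27. Myd88, the shared Toll adaptor, fell from 98.8 ± 8.33 to 66.2 ± 3.38 CPM (SD, n = 2 and 4), a log2 fold change of -0.58 (SE 0.07, adjusted p = 1.2e-05 by edgeR). Irak4, the first kinase behind it, had a log2 fold change of -0.62, Il1rap, the interleukin-1 receptor partner, of -0.66, and Peli1, a ligase of the pathway, of -0.70. Sqstm1, named after its values were seen, was the most abundant gene of the list and rose by 0.48 on the log2 scale.

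Of 26 genes that TNF-α induces in endothelium 23 were tested, and 13 were lower, 3 were higher (5 when scaled by library size only) and 7 did not pass, with a median log2 fold change of -0.49 against 0.03 for all genes. The 3 that were higher, Traf1, Birc3 and Tnfaip3, encode proteins of the receptor complex or its feedback, and Traf1 and Birc3 belong to the 10 members. Selp, which encodes P-selectin, fell from 193 ± 3.02 to 56.8 ± 3.61 CPM (SD, n = 2 and 4), a log2 fold change of -1.76 (SE 0.07, adjusted p = 1.5e-11 by edgeR). Cxcl10 at -1.29 and Vcam1 at -1.21 were also lower. Nfkbia, the inhibitor induced by NF-κB, had a log2 fold change of 0.08 and did not pass (adjusted p = 0.376 by edgeR). The list was written with earlier results of these data known, and it holds genes that the study chose on these samples, so its direction is not independent evidence. Endothelial markers also moved, with 7 of 13 lower and 2 higher, Emcn at -1.33 and Erg at 1.12 among them, and their part in these values was not tested.

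**Figure D5:**
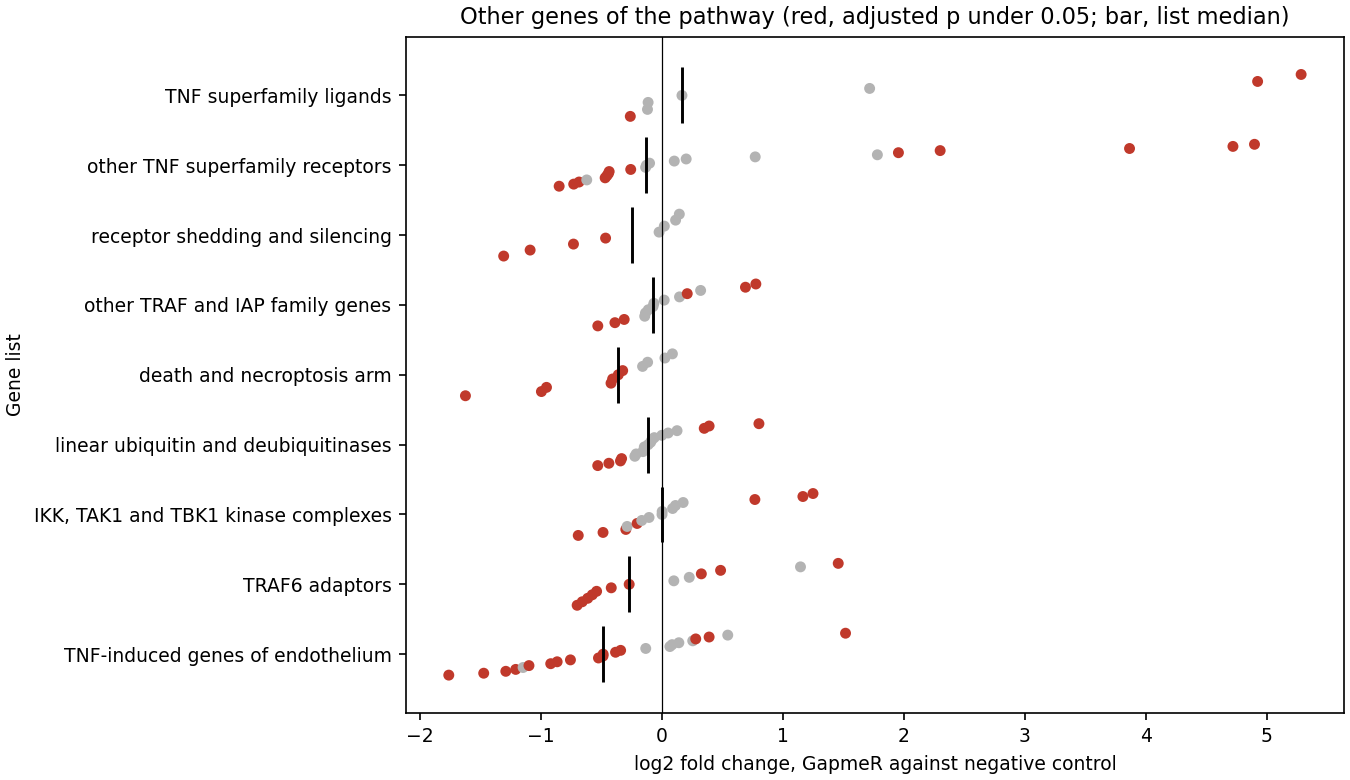
Log2 fold change of GapmeR against negative control (horizontal axis) for the tested genes of 9 lists of the pathway, 1 point per gene, red with an adjusted p-value under 0.05 and grey otherwise, with the list median as a bar. With TMM scaling, the genes that passed in the death and necroptosis arm all lie left of 0, and Traf1 lies farthest right among the TNF-induced genes at 1.52.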

How the data were processed

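The authors sequenced paired reads from RNA without ribosomal RNA. Per the labels, they trimmed with Trimmomatic 0.36 and aligned with STAR 2.5.2b to mm10, and Subread 1.5.2 is named with no role. The deposited values are raw counts per Ensembl gene, not normalized. The strand setting and Ensembl release are not given in the sources used here. Another 1 column of per-sample values, headed N3, went unused, since it matches none of the samples analysed here. Its heading follows those of the controls, N1 and N2. The study names 4 negative controls, and 2 were analysed here.

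Counts were tested with edgeR 4.0.16 in R 4.3.3 (TMM, robust quasi-likelihood, Benjamini-Hochberg adjustment) where 2 or more samples had 5 or more counts, which left 18234 genes. The biological coefficient of variation was 8.42%. The SE is the size of the log2 fold change over the square root of F. Chi-squares between replicates were 5.41 to 25.2 per degree of freedom, so none were the same library. Alternatives were DESeq2 1.42.0's size factors and Wald test, library size only, voom of limma 3.58.1, other filters, thresholds and lengths, the replicate block and each sample left out. Leaving out GapmeR 1 and GapmeR 2, or GapmeR 3 and GapmeR 4, which leaves the 4 same-numbered samples, was chosen after seeing the data. Each function was first checked on simulated counts.

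The members and lists were chosen with earlier results of these data known. Named genes were all members, Gm39822, Tnf, in each list up to 4 of the largest changes with an adjusted p-value under 0.05 and a mean of at least 1 CPM, and the 3 genes nearest in profile to each of the 3 members with the largest change. Other genes were named for context after their values were seen. Gene positions are from RefSeq (mm10) and exon lengths from GENCODE M39. Python 3.11.15 ran the other steps. Some genes of the lists are not reported here by name.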

Additional observations from a re-analysis of the deposited data

Results flagged for a closer look

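In 55 genes (the members, Gm39822, Tnf and up to 4 genes of the largest change that passed in each pathway or marker list), the GapmeR samples were screened for a sample far from the others, by the gap to its nearest neighbor as a share of the range of the 4 samples against Dixon's 95% limit. Chance alone flags about 1 in 20 groups, and 7 genes were flagged. No member of the receptor complex was among them. Tnf (0.880) was high in GapmeR 3, with 8 counts against at most 1 in the other GapmeR samples. Erap1 (0.833) was high in GapmeR 1 at 48.5 CPM. Traf3ip2 (0.892) was low in GapmeR 2 at 31.0 CPM. Bid (0.887) was low in GapmeR 4 at 35.4 CPM. Ikbke (0.851) was high in GapmeR 4 at 9.26 CPM. Of the neural markers, Gfap (0.860) was high in GapmeR 4 at 2.54 CPM and Rbfox3 (0.958) was high in GapmeR 3 at 4.42 CPM. In Erap1, Traf3ip2, Bid and Ikbke the sample that stood apart stayed on its group's side of both controls.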

How the results depend on the processing

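Traf1 and Tnfrsf1a kept their direction in all alternative fits, with log2 fold changes of 1.43 to 1.66 and -0.55 to -0.33. Their adjusted p-values stayed under 0.05 in the fits that kept both controls and were chosen before the data were seen. Gm39822 stayed between -5.44 and -4.32, and was not tested with at least 10 counts in every sample or without either negative control, where it did not pass the filter on low counts. Scaling by library size only moved the median of all genes from 0.03 to 0.17, and the genes that passed from 4625 higher and 3643 lower to 6106 and 2135. In it 6 members passed, with Traf2 (0.19) and Birc2 (0.33) added, and Traf6 (0.068), Ripk1 (0.029) and Tradd (0.13) changed sign without passing. Tradd was also above 0 with at least 10 counts in every sample (0.032) and without GapmeR 1 and GapmeR 2 (0.10), and was -0.044 to 0.045 with 1 sample left out. Birc3 stayed higher but did not pass with DESeq2's Wald test (0.28), with no filter (0.27), or without GapmeR 3 and GapmeR 4 (0.28), which leaves the 4 same-numbered samples, and was 0.27 to 0.30 with 1 sample left out. With 1 sample left out, Traf3 was 0.27 to 0.33, Birc2 0.13 to 0.28 and Traf2 -0.017 to 0.14. With 1 GapmeR sample left out 3 to 5 members passed, against 41.7% to 48.9% of all genes. Fits without a negative control leave 1 control, so their counts of passing genes are not given. Tnfrsf1b was 1.00 without GapmeR 1 and GapmeR 2 and -0.26 without GapmeR 3 and GapmeR 4, a split made after its values were seen, so these are values with no test. Only 1 member, Traf1, passed at 1.5-fold or more, so Tnfrsf1a did not. No ligand passed with at least 10 counts in every sample, a filter that removed Fasl and Tnfsf13b but not Tnfsf10. Of the kinase genes, 7 to 8 passed with 1 GapmeR sample left out. The causes of the other changes were not tested. With the longest transcript as length, the levels per kb were 76.1 for Tnfrsf1a, 13.1 for Tradd, 11.8 for Traf2, 9.86 for Ripk1, 5.42 for Traf6, 3.83 for Birc2, 1.92 for Birc3 and 0.783 for Traf1, against 56.5, 11.9, 7.27, 6.41, 4.20, 3.01, 1.31 and 0.419 with all exons.

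The replicate number was used as a block on the 4 samples that share one, which leaves 1 residual degree of freedom. Correlations of the deviations of same-numbered samples were -0.119 and 0.176. Both rest on the same difference between the negative controls, so they are not independent. They cannot show whether same-numbered samples share more than a number. With the block 3 members passed, Birc3 was 0.28 (adjusted p = 0.0854 by edgeR) and Tnfrsf1b was -0.26 (adjusted p = 0.252), as it was at -0.26 in the same samples without the block, which is the fit without GapmeR 3 and GapmeR 4. With the block 7812 genes passed, against 7661 in the same samples without it.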
